A study of Mus musculus with 5 samples.

Results

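The CC chemokines described here were 10 genes, Ccl2, Ccl3, Ccl4, Ccl5, Ccl6, Ccl7, Ccl8, Ccl9, Ccl22 and Ccl24, taken by gene name from the 37074 names on a mouse expression array. They were read by 11 of its 56605 probes, 2 of them for Ccl4. The array was hybridized in 1 colour (Cy3) with RNA of liver sinusoidal endothelial cells (LSECs), of tumor endothelial cells (TECs) from tumors of the hepatoma lines HAK-1B, Hepa1-6 and KYN-2, and of cultured Hepa1-6 cells. There was 1 array per condition and 5 arrays in all. HAK-1B and KYN-2 are human lines and Hepa1-6 is a mouse line, and all were grown as tumors in the mouse liver. Where the methods describe the arrays they list Huh-7 and not HAK-1B, so the name HAK-1B rests here on the labels. The labels gave the strain C57BL/6 for LSECs and for the TECs of all 3 tumors, and C57L for Hepa1-6 cells, whereas the methods also name nude mice as hosts. No genotype, treatment or age was given by the labels, and each condition is 1 sample, for which no source used here says whether RNA of several animals was combined. TECs were CD31+ cells drawn from digested tumors with magnetic beads, so that any other cell bound by the beads would add its RNA.

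Chemokines are small secreted proteins that guide white blood cells along their gradients through receptors coupled to G proteins. In the CC family the first pair of conserved cysteines is adjacent. Monocytes, neutrophils, eosinophils and lymphocytes carry different CC receptors, so the set of ligands in a tissue bears on which cells enter it. In the liver, CC chemokines are known from Kupffer cells, which are the resident macrophages of the sinusoid, and also from endothelial and stellate cells.

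The values rest on 60-base probes, and the first 30 bases of those for the 4 genes with a ratio that passed the rule of size between endothelial arrays are shown to identify what was hybridized. The Ccl2 probe lay at chr11:81850650-81850709 and the Ccl7 probe at chr11:81860656-81860715, both on the plus strand of mm9, the build of the array. The Ccl8 probe lay at chr11:81930108-81930167 on the plus strand and the Ccl9 probe at chr11:83388223-83388282 on the minus strand. Whether a probe lay in coding or untranslated sequence was not analysed here.
Ccl2 probe: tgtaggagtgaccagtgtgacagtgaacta
Ccl7 probe: ttctgagaactgttgatgaaatgtgttgat
Ccl8 probe: accagaagtctcaaattctgcagccttgaa
Ccl9 probe: caactaggatgaaataaattctgccttagc
Between probes of different genes among the 10, at most 26 of the 60 bases were identical in an ungapped alignment. The 2 Ccl4 probes shared 46 bases and are not independent.

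A promoter of RefSeq (GRCm38.p6) was matched for 5 of the 10 genes, Ccl3, Ccl6, Ccl8, Ccl9 and Ccl22. The 250 bases before the start are shown for Ccl9, for its neighbour Ccl6 and for Ccl8, since these genes differ in their ratios below. Capitals mark the letters TATAAA on either strand in Ccl8 and Ccl9, where several matches may overlap, and the kappa B consensus, which NF-kappa B proteins bind, close to the 3′ end in Ccl9. The windows were chr11:83578637-83578886 on the minus strand for Ccl9, chr11:83593088-83593337 on the minus strand for Ccl6 and chr11:82114935-82115184 on the plus strand for Ccl8.
Ccl9 upstream: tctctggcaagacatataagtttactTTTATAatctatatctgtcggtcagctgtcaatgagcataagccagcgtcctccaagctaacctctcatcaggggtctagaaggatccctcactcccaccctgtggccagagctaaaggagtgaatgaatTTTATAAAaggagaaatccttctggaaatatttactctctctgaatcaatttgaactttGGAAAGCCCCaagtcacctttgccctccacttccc
Ccl6 upstream: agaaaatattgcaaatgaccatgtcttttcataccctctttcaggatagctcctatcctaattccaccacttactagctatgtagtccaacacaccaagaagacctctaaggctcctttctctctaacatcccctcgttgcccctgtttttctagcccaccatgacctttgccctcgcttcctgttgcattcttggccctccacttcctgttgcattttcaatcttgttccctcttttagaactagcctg
Ccl8 upstream: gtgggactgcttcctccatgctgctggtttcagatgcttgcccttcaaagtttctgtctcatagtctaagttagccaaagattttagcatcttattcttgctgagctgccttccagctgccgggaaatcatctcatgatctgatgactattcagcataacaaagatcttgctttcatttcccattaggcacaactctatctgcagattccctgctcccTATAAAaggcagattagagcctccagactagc
A kappa B match, sought on both strands, was present in 1 of the 5 promoters of 300 bases and in 8.46% of 32851 mouse promoters of that length. TATAAA was present in 2 of the 5, Ccl8 and Ccl9, and in 13.6% of all promoters. These matches are a description of letters and say nothing of a factor's binding.

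Across the arrays, 54.1% of probes were well above background for LSECs, 57.6% for HAK-1B TECs, 78.1% for Hepa1-6 TECs, 54.7% for KYN-2 TECs and 44.6% for Hepa1-6 cells. The array of Hepa1-6 TECs thus stood apart in the number of probes detected. The median signal before normalization was 45.4, 39.2, 85.6, 22.7 and 38.4 in the same order. Single-gene signals given below as processed intensities are not normalized, so arrays are to be compared by the ratios, which are. No probe was saturated, and spots repeated within an array had a median coefficient of variation of 2.62% to 3.08%, which leaves out the spread between animals. The 3 TEC arrays shared a slide, whereas LSECs and Hepa1-6 cells were each alone on another slide, and group and slide therefore cannot be told apart. With 1 array per condition no difference between a pair of conditions could be tested, and the one fit with a test, given further below, takes the 3 TECs together. Following the methods, a gene was called by a rule of size, which asks for a ratio of 1.5 or more and a Z-score of 2 or more, or for a ratio of 0.66 or less and a Z-score of -2 or less, where the Z-score is taken over all kept probes of that comparison. All comparisons with LSECs share the LSEC array. In bulk RNA, more cells of a type and more RNA per cell cannot be told apart.

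Of the 10 genes, 9 were well above background on each of the 4 endothelial arrays. Ccl22, a ligand of Ccr4 known from dendritic cells and macrophages, was well above background on none of the 5 arrays and was left out of every count below. On the array of Hepa1-6 cells only Ccl2, Ccl5 and Ccl9 were detected, 3 of 10, where 45.5% of all gene names were detected. Among the 9 kept genes, 2 were called higher in HAK-1B TECs, Ccl8 and Ccl9, beside 3.11% of all kept genes in that comparison. In Hepa1-6 TECs 1 was called higher, Ccl9, beside 4.55% of all kept genes, and with normexp background correction 3 were, with Ccl7 and Ccl8 added. In KYN-2 TECs 2 were called higher, Ccl7 and Ccl9, beside 3.64%, and 3 with the deposited table and several other alternatives, with Ccl2 added. None was called lower in a TEC, where the share of all kept genes called lower was 3.94% for HAK-1B, 2.04% for Hepa1-6 and 2.87% for KYN-2.

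**Figure D1:**
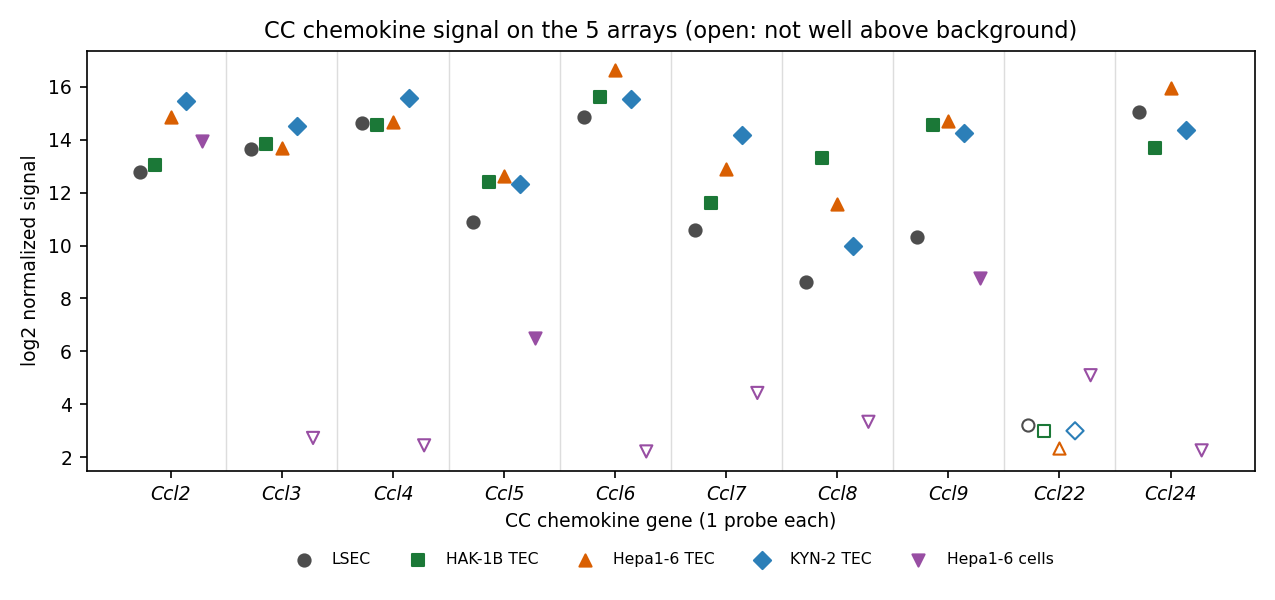
Log2 normalized signal (y axis) of the 10 CC chemokine genes (x axis, 1 probe each) on the 5 arrays, 1 point per array. Filled points are well above background and open points are not, and points are to be compared within a gene only. Ccl9 lies at 14.25 to 14.71 in the 3 TECs and at 10.31 in LSECs, while Ccl3, Ccl4, Ccl6, Ccl7, Ccl8 and Ccl24 are open in Hepa1-6 cells.

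By the ratio alone, without the Z-score, 5 of the 9 genes were at or above 1.5 in HAK-1B TECs (26.6% of all kept genes) and 1 at or below 0.66 (26.9%). In Hepa1-6 TECs 7 were at or above 1.5 (35.2%) and 0 at or below 0.66 (30.9%). In KYN-2 TECs 8 were at or above 1.5 (26.0%) and 1 at or below 0.66 (28.5%). The median log2 ratio of the 9 genes was 0.75 in HAK-1B TECs, 1.79 in Hepa1-6 TECs and 1.33 in KYN-2 TECs, where the median of all kept genes was 0.00, 0.09 and -0.05. At least at that ratio, 5 genes were higher in all 3 TECs, Ccl5, Ccl6, Ccl7, Ccl8 and Ccl9, beside 10.3% of 26771 genes. None of the 9 was lower in all 3, beside 13.7%, and without Hepa1-6 TECs 1 was, Ccl24.

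Ccl9 and Ccl6 encode the rodent macrophage inflammatory protein-related chemokines, which act on Ccr1. The processed signal of Ccl9 was 1342 in LSECs, 25589 in HAK-1B TECs, 29040 in Hepa1-6 TECs, 12229 in KYN-2 TECs and 538 in Hepa1-6 cells. All 3 TEC arrays were thus far above both other arrays. After normalization Ccl9 was 19.2-fold higher than in LSECs in HAK-1B TECs, 21.0-fold higher in Hepa1-6 TECs and 15.3-fold higher in KYN-2 TECs. It was the one gene of the 10 called in all 3 comparisons. The 3 TECs differed among themselves by 1.37-fold at most, a log2 range of 0.46, and 77.6% of 16972 genes detected on the 4 endothelial arrays had a range at least as wide. Between Hepa1-6 TECs and Hepa1-6 cells, Ccl9 differed by 61.8-fold.

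The signal of Ccl6 was 24170 in LSECs, 51436 in HAK-1B TECs, 116492 in Hepa1-6 TECs, 32651 in KYN-2 TECs and 12.3, not well above background, in Hepa1-6 cells. Although its gene neighbours Ccl9, the ratio of Ccl6 was smaller, at 1.69-fold higher in HAK-1B TECs, 3.46-fold in Hepa1-6 TECs and 1.61-fold in KYN-2 TECs. None of these passed the rule of size.

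Ccl2, Ccl7 and Ccl8 belong to the monocyte chemoattractant proteins. Ccl2 and Ccl7 draw monocytes through Ccr2, and mouse Ccl8 is known to act on Ccr8. The signal of Ccl8 was 438 in LSECs, 10559 in HAK-1B TECs, 3208 in Hepa1-6 TECs, 603 in KYN-2 TECs and 14.1, not well above background, in Hepa1-6 cells. It was highest in HAK-1B TECs, at 25.5-fold over LSECs and called there. The ratio was 7.57-fold in Hepa1-6 TECs and 2.52-fold in KYN-2 TECs, neither of them called.

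Ccl7 had the opposite order among the TECs. Its signal was 1629 in LSECs, 3239 in HAK-1B TECs, 8019 in Hepa1-6 TECs, 11687 in KYN-2 TECs and 17.0, not well above background, in Hepa1-6 cells. The ratio to LSECs was 2.04-fold in HAK-1B TECs, 4.97-fold in Hepa1-6 TECs and 12.0-fold in KYN-2 TECs, of which the last was called. Ccl2 had a signal of 6848 in LSECs, 8747 in HAK-1B TECs, 31845 in Hepa1-6 TECs, 31187 in KYN-2 TECs and 25761 in Hepa1-6 cells. After normalization its ratio was 1.20-fold, 4.15-fold and 6.45-fold in the same order of TECs, and it was not called, with a Z-score of 1.95 in KYN-2 TECs. There it passed under most alternatives, among them 75th percentile scaling, normexp and the deposited table of values, and did not pass with quantile normalization by pair or over the 4 endothelial arrays.

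Ccl2 was the only gene of the 10 that was higher in cultured Hepa1-6 cells than in LSECs, by 2.26-fold. Hepa1-6 TECs were 1.83-fold above Hepa1-6 cells for Ccl2, so for this gene the cancer cells' own signal was of the same order as that of the TECs of that tumor. The part of cancer cell RNA in the Ccl2 signal was not tested.

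Compared directly, KYN-2 TECs had 5.38-fold more Ccl2 and 5.88-fold more Ccl7 than HAK-1B TECs and 10.1-fold less Ccl8. These 3 passed the rule of size in that comparison, and the other kept genes did not. The range of Ccl8 over the 3 TECs was 3.34 on the log2 scale, and 2.45% of genes had a range as wide, whereas the median range over all genes was 0.86. For Ccl7 the range was 2.56 and for Ccl2 2.43. Since each tumor was 1 array, differences between tumors and between preparations cannot be told apart. Nor can a difference of host strain, if nude mice carried some of the tumors.

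**Figure D2:**
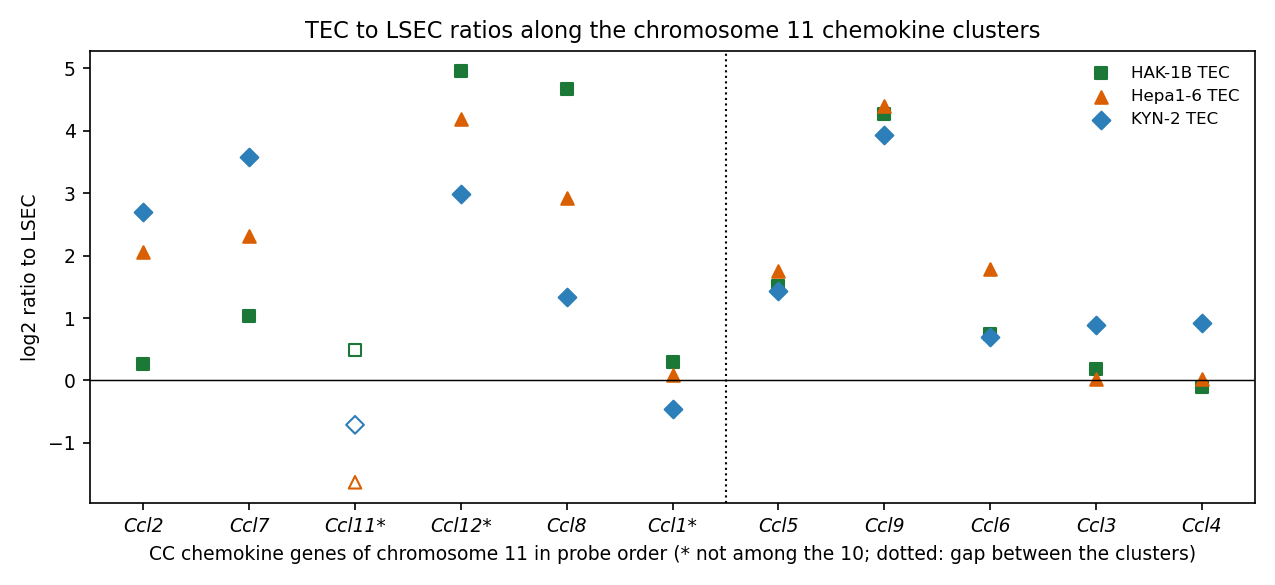
Log2 ratio to LSECs (y axis) for 11 CC chemokine genes in the order of their probes on chromosome 11 (x axis), 1 point for each of the 3 TECs. Open points belong to a gene not above background on all 4 endothelial arrays, and an asterisk marks genes outside the 10. In the group on the left Ccl12 and Ccl8 are highest in HAK-1B TECs and Ccl2 and Ccl7 in KYN-2 TECs, while Ccl9 stands above its neighbours on the right in all 3.

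Ccl3, Ccl4 and Ccl5 are inflammatory chemokines that draw monocytes and T cells, and Ccl3 and Ccl5 act on Ccr1. The signal of Ccl5, known from T cells, NK cells and activated macrophages, was 1986 in LSECs, 5613 in HAK-1B TECs, 6635 in Hepa1-6 TECs, 3120 in KYN-2 TECs and 94.7 in Hepa1-6 cells. It was 2.87-fold, 3.36-fold and 2.72-fold higher than in LSECs in the same order of TECs, with a range of 0.30 on the log2 scale over the 3. None of these ratios was called. Ccl3 had a signal of 11807 in LSECs, 14924 in HAK-1B TECs, 13571 in Hepa1-6 TECs, 15064 in KYN-2 TECs and 13.2, not well above background, in Hepa1-6 cells.

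The log2 ratio of Ccl3 to LSECs was 0.18 in HAK-1B TECs, 0.03 in Hepa1-6 TECs and 0.89 in KYN-2 TECs. The brighter Ccl4 probe had 21105 in LSECs, 25051 in HAK-1B TECs, 28129 in Hepa1-6 TECs, 32920 in KYN-2 TECs and 12.9, not well above background, in Hepa1-6 cells. Its log2 ratios were -0.10, 0.03 and 0.92, and those of the other Ccl4 probe were -0.16, -0.04 and 0.86. Ccl3 and Ccl4, which neighbour each other on chromosome 11, thus reached a ratio of 1.5 in KYN-2 TECs only.

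Ccl24, a ligand of Ccr3 that draws eosinophils, differed in direction between tumors. Its signal was 27336 in LSECs, 13540 in HAK-1B TECs, 70879 in Hepa1-6 TECs, 13116 in KYN-2 TECs and 12.5, not well above background, in Hepa1-6 cells. Relative to LSECs it was 2.61-fold lower in HAK-1B TECs, 1.85-fold higher in Hepa1-6 TECs and 1.63-fold lower in KYN-2 TECs, and none of these was called. Hepa1-6 TECs were 4.84-fold above HAK-1B TECs.

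In the comparison of cultured Hepa1-6 cells with LSECs, 5 of the 9 kept genes were called lower, Ccl3, Ccl4, Ccl6, Ccl7 and Ccl24, beside 4.81% of all kept genes, and 0 were called higher, beside 2.59%. By the ratio alone 8 of the 9 were at or below 0.66, beside 37.7%, and 1 was at or above 1.5, Ccl2, beside 36.2%. Where a gene was not well above background in Hepa1-6 cells, the fold is a bound, set against the dimmest signal that still counted as detected on that array. By this bound Ccl24 was at least 547-fold lower, Ccl6 at least 475-fold, Ccl4 at least 409-fold by its brighter probe and Ccl3 at least 205-fold. Ccl7 was at least 24.8-fold lower and Ccl8 at least 6.38-fold lower. The call of Ccl7 rested on its undetected signal, since the rule needed 51.2-fold. Among the measured ones Ccl5 was 21.1-fold lower and Ccl9 2.94-fold lower. With genes not detected on both arrays left out, the call was 1 gene, Ccl5.

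A separate fit took the 3 TECs as a group against the LSEC array, with limma and Benjamini-Hochberg adjustment over all 42113 probes tested. It rests on 2 residual degrees of freedom, treats TECs of 3 different tumors as replicates and takes LSECs to vary as they do. At an adjusted p under 0.05 it called 0% of probes, that is 0 of 42113, and 3581 probes had an unadjusted p under 0.05. Of the 10 probes of the 9 genes, 2 had an unadjusted p under 0.05. Ccl9 had a log2 difference of 4.20 (SE 0.51, limma adjusted p = 0.443) and was higher in 3 of 3 TECs. Ccl5 had a log2 difference of 1.57 (SE 0.49, limma adjusted p = 0.529) and was higher in 3 of 3. For Ccl8 the difference was 2.97 (SE 1.39), for Ccl7 2.31 (SE 1.11) and for Ccl24 -0.40 (SE 1.03).

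Of 13 other CC chemokine genes 11 were on the array. Ccl12, a further monocyte chemoattractant whose gene lies next to Ccl8, was called higher in all 3 TECs, at 30.8-fold in HAK-1B, 18.2-fold in Hepa1-6 and 7.90-fold in KYN-2 TECs. Its order over the tumors was that of Ccl8. Ccl17, which shares the receptor Ccr4 with Ccl22 and did not stand well above background in LSECs, was at least 38.6-fold higher in Hepa1-6 TECs and called there. Ccl21a, known for drawing Ccr7-bearing lymphocytes and dendritic cells, was 13.5-fold lower in Hepa1-6 TECs and 105-fold lower in KYN-2 TECs, both called, and 1.71-fold higher in HAK-1B TECs. No other of the 11 genes was called in a TEC.

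Among 10 CC receptor genes, 2 were called higher in HAK-1B TECs, 1 in Hepa1-6 TECs, 1 in KYN-2 TECs and 0 lower. Ccr2, the receptor of Ccl2 and Ccl7, had a log2 signal of 6.80 in LSECs, 12.09 in HAK-1B TECs, 10.34 in Hepa1-6 TECs and 8.48 in KYN-2 TECs. It was thus highest in HAK-1B TECs, where Ccl2 and Ccl7 were lowest among the TECs. The monocyte chemoattractant Ccl12 instead had the order of Ccr2, with log2 ratios of 4.95 in HAK-1B, 4.19 in Hepa1-6 and 2.98 in KYN-2 TECs. No link between receptor and ligand signal was tested. Ccr1, the receptor of Ccl9 and Ccl6, did not stand well above background in LSECs, which gave a bound of at least 5.78-fold higher in HAK-1B TECs and at least 1.47-fold higher in KYN-2 TECs, both called. Ccr3, the receptor of Ccl24, was 4.35-fold, 2.06-fold and 4.49-fold lower in that order and was not called. Ccr4 was well above background on no array.

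**Figure D3:**
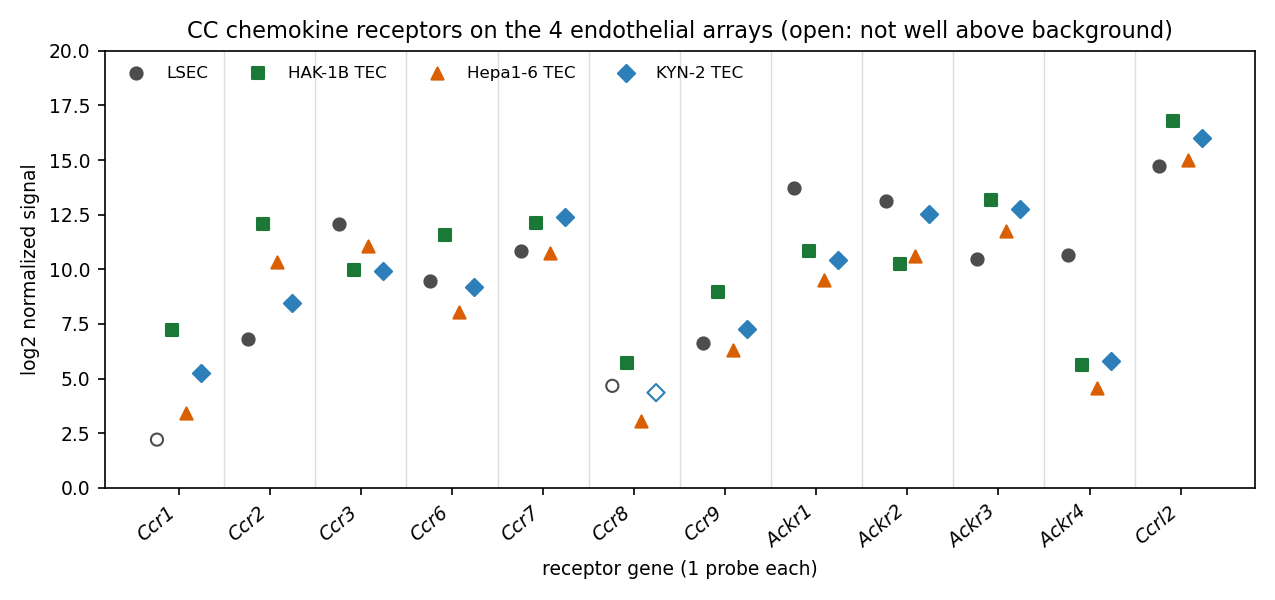
Log2 normalized signal (y axis) of those CC and atypical chemokine receptor genes reported here that were detected on at least 1 endothelial array (x axis, 1 probe each), 1 point per array. Open points are not well above background. Ccr2 lies at 6.80 in LSECs and at 8.48 to 12.09 in the TECs, and Ackr4 at 10.65 in LSECs and at 4.58 to 5.81 in the TECs.

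The atypical receptors bind chemokines without signalling through G proteins and are known to take them up or carry them. Ackr1, which binds many CC chemokines on venular endothelium, was 7.52-fold lower in HAK-1B TECs, 18.5-fold in Hepa1-6 TECs and 9.79-fold in KYN-2 TECs, and called in all 3. Ackr4, which clears the ligands of Ccr7 and Ccr9, was 32.2-fold, 67.2-fold and 28.5-fold lower and called in all 3. Ackr2, a scavenger of inflammatory CC chemokines known from lymphatic endothelium, was 7.41-fold, 5.78-fold and 1.51-fold lower and called in HAK-1B TECs. Ackr3 and Ccrl2 were called in no TEC.

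Of 18 genes for G proteins, arrestins, receptor kinases and other steps below the receptors, all were detected on the 4 endothelial arrays and 1 was called in a TEC. This was Pik3r5, a subunit of the phosphoinositide kinase that G proteins activate, 9.39-fold higher in HAK-1B TECs. Of 11 cytokine genes known to act on chemokine genes, 1 was called in a TEC, Tnf, 7.67-fold higher in KYN-2 TECs and 2.55-fold and 1.14-fold higher in HAK-1B and Hepa1-6 TECs. Ccl2, Ccl3, Ccl4 and Ccl7 were likewise highest in KYN-2 TECs after normalization, but Ccl2 and Ccl7 were lowest in HAK-1B TECs and Tnf in Hepa1-6 TECs. Il1b, the brightest of these cytokine genes on the 4 endothelial arrays, was highest in HAK-1B TECs, at 5.01-fold over LSECs, and was not called. Whether any of these cytokines acted on the chemokine genes was not tested.

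The endothelial identity of the arrays was read from marker lists. All 8 pan-endothelial genes and all 6 LSEC genes were well above background on the 4 endothelial arrays, and 1 of 8 and 1 of 6 were in Hepa1-6 cells. Kdr and Tek, receptors of endothelial growth factors, were called lower in all 3 TECs, as were the LSEC genes Clec4g and Oit3. Lyve1 of the LSEC list went the other way, at 1.96-fold higher in Hepa1-6 TECs and 3.69-fold in KYN-2 TECs, neither of them called, and was 1.16-fold lower in HAK-1B TECs. The median log2 ratio of the LSEC list was -2.87 in HAK-1B, -2.99 in Hepa1-6 and -2.66 in KYN-2 TECs. The median log2 ratio of the pan-endothelial list was -2.49 in HAK-1B, -2.52 in Hepa1-6 and -1.34 in KYN-2 TECs.

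Genes of other cells that secrete CC chemokines were also detected. All 12 monocyte and macrophage genes were well above background on the 4 endothelial arrays, with a summed normalized signal of 695561 in LSECs, 1021510 in HAK-1B, 487012 in Hepa1-6 and 649367 in KYN-2 TECs. None of the 12 was called in a TEC, and the lysozyme gene Lyz2 lay at 17.45 in LSECs and at 17.47 to 18.28 in the TECs on the log2 scale. All 5 Kupffer cell genes were detected too. Their sum was 379312 in LSECs, 15477 in HAK-1B, 86076 in Hepa1-6 and 53391 in KYN-2 TECs, and 5, 0 and 2 of the 5 were called lower. Clec4f, which is known from Kupffer cells, was 47.3-fold, 4.05-fold and 6.15-fold lower.

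Of 8 neutrophil genes 7 were called higher in HAK-1B TECs, 4 in Hepa1-6 TECs and 1 in KYN-2 TECs. Their summed signal was 91470 in LSECs, 197819 in HAK-1B, 63712 in Hepa1-6 and 76514 in KYN-2 TECs. Csf3r, which was detected in Hepa1-6 cells too and was 1.57-fold, 2.43-fold and 1.23-fold lower in the TECs, made up 97.8% of the sum in LSECs, and without it the sums on the 4 endothelial arrays were 2057, 140929, 26913 and 3660 in the same order. S100a8 was 131-fold higher in HAK-1B TECs, 20.7-fold in Hepa1-6 TECs and 3.07-fold in KYN-2 TECs, the same order as Ccl8 and Ccl12. S100a9, Retnlg, Cxcr2 and Camp had that order too, whereas Csf3r, Ly6g and Mmp8 did not. The share of all genes with such an order was not counted, and a link to Ccl8 or Ccl12 was not tested. Mmp8, the neutrophil gene called in KYN-2 TECs, was 26.9-fold higher in HAK-1B, 27.2-fold in Hepa1-6 and 26.5-fold in KYN-2 TECs. In LSECs and KYN-2 TECs Ly6g did not stand well above background. It was called higher in the other TECs, at a log2 signal of 6.12 in HAK-1B and 7.10 in Hepa1-6 TECs. Its bounds over LSECs were 2.72-fold and 5.37-fold, below the 7.25-fold and 11.4-fold that the rule needed. Its signal was higher still in cultured Hepa1-6 cells, at 9.74. The dendritic cell gene Itgax was 74.8-fold, 23.9-fold and 21.6-fold higher and called in all 3, while Zbtb46 was 9.26-fold, 18.1-fold and 5.94-fold lower, of which HAK-1B and Hepa1-6 TECs were called. The 6 dendritic cell genes were split in HAK-1B TECs, with Itgax and Flt3 called higher and Zbtb46 and Clec9a called lower. Their summed signal was 2650 in LSECs and 8573 to 28373 in the TECs, where Itgax alone made up 92.8% to 97.2%. Xcr1 was flagged as detected in Hepa1-6 TECs only, at a log2 signal of 3.51, beside 2.94 to 3.38 on the other arrays. The lowest log2 signal counted as detected was 2.85 on that array and 4.28 to 5.96 on the others, so the flag shows no difference in Xcr1.

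Of 8 T and NK cell genes, with a summed signal of 3375 in LSECs and 3412 to 5689 in the TECs, 1 was called higher in HAK-1B TECs, Klrb1c, and 1 in Hepa1-6 TECs, Ncr1. The bound for Klrb1c was 3.79-fold, below the 7.25-fold that the rule needed. Of 6 fibroblast and stellate cell genes 1, 3 and 3 were called higher in the TECs, in the order given above. Col1a1 did not stand well above background in LSECs, so it was at least 26.7-fold, 71.1-fold and 112-fold higher, the order of Ccl7 and Ccl2. Col1a2, Col3a1 and Pdgfrb had that order too, whereas Dcn did not, and Lrat was detected in Hepa1-6 TECs only. The summed signal of that list was 3287 in LSECs, 5104, 34338 and 13446 in the TECs and 109755 in Hepa1-6 cells. The proteoglycan gene Dcn made up 99.9% of the sum in Hepa1-6 cells and 78.7% in Hepa1-6 TECs. Relative to LSECs it was 1.73-fold lower in HAK-1B TECs, 9.74-fold higher in Hepa1-6 TECs and 1.17-fold higher in KYN-2 TECs. Hepatocyte genes summed to 35976 in LSECs, 1175 in HAK-1B, 67613 in Hepa1-6 and 1782 in KYN-2 TECs, and of 7 genes 5 were called lower in HAK-1B TECs and 5 in KYN-2 TECs. In cultured Hepa1-6 cells the sum was 23928, so that line has signal for genes of this list too. Alb made up 65.7% of the sum there and 70.3% in Hepa1-6 TECs. The part of any of these cells in the chemokine ratios was not tested.

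**Figure D4:**
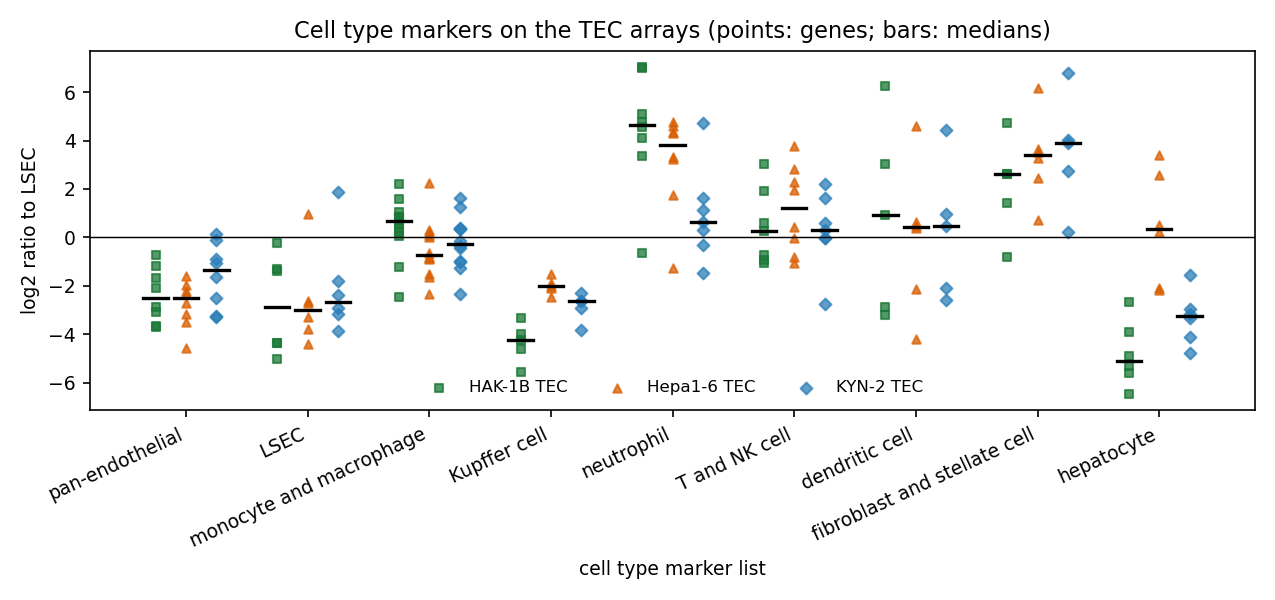
Log2 ratio to LSECs (y axis) of the genes in 9 marker lists (x axis), 1 point per gene kept in the comparison and 1 colour and shape for each of the 3 TECs, with a bar at the list's median. Kupffer cell genes lie below 0 in all 3 TECs, with a median of -4.24 in HAK-1B TECs, and neutrophil genes have a median of 4.66 there and of 0.62 in KYN-2 TECs.

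The genes whose 3 TEC ratios came closest to those of a chemokine were sought among 16972 genes detected on the 4 endothelial arrays, by the root mean square of the differences between the 3 log2 ratios. For Ccl9 they were Timp1 at 0.22, Gm4907 at 0.24 and Gm41830 at 0.29, where Timp1 encodes an inhibitor of matrix metalloproteinases. For Ccl8 they were Igfbp6 at 0.22, Emid1 at 0.44 and Pdcd1 at 0.46. For Ccl7 they were Rad54l at 0.19, Col6a1 at 0.34 and Cfap69 at 0.37.

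For Ccl2 the nearest were Adamts2 at 0.27, Nudt22 at 0.30 and Smtnl2 at 0.30. Among the 10 chemokines the pairs nearest to each other were Ccl3 and Ccl4 at 0.16, Ccl5 and Ccl6 at 0.62, Ccl2 and Ccl7 at 0.70 and Ccl8 and Ccl9 at 1.74. Ccl3 and Ccl4 had 264 and 160 genes within 0.25, of which the nearest named genes were Kcng2 at 0.05 for Ccl3 and Bpifa1 at 0.03 for Ccl4. Ccl5 had 41 such genes, led by Mier2, Tmem254a and Zfp787, and Ccl6 had 106, led by Tomm20, Bzw2 and Suv39h1. Ccl24 had 14, led by Zfp462, Abhd14a and Zfp420. These are likenesses over 3 ratios that share the LSEC array.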

How the data were processed

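The authors hybridized Cy3-labelled RNA to Agilent 60-mer mouse arrays and deposited scanner files, which per the file headers hold the linear intensity of every spot after background subtraction on its own array, with flags of 0 or 1 in other columns. Per the labels the scans were read with Agilent Feature Extraction 9.5.1.1. The authors also deposited a table of normalized intensity values for the 5 arrays. The CC chemokine genes, gene lists and tests were chosen with earlier results of these data known.

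Control spots were left out, repeated spots of a probe averaged, and log2 intensity quantile normalized over the 5 arrays. Probes with no outlier or saturation flag and detected above background on either array of a comparison were kept, without lincRNA probes. Each gene was read from its brightest probe on average, and the rule of size followed the methods. The text names all 10 chemokines, from the other pathway lists genes called in a comparison (up to 4 per list, by the size of the ratio) or otherwise the brightest gene, and the 3 nearest genes. Other genes it names from these lists were chosen after their values were seen. limma 3.58.1 in R 4.3.3 gave the fit over the TECs. Other steps ran in Python 3.11.15 (pandas 2.3.3, numpy 2.4.6, scipy 1.17.1). Rule and fit were tested on simulated arrays, with independent noise around the LSEC signal and equal shifts in all 3 TECs. This checked the code and not how the fit performs on tumors that differ, as here. All 10 genes matched RefSeq (GRCm38.p6) by accession. Precision is limited by 1 array per condition. Alternatives were 75th percentile scaling, quantile normalization by pair, normexp with an offset of 50, the deposited table, the mean of a gene's probes and other filters. Protein sequences were not analysed here, and 1 gene of the receptor list is not reported here.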

Additional observations from a re-analysis of the deposited data

Results flagged for a closer look

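Ccl24 was set apart because its ratio to LSECs passed 1.5 in one tumor and 0.66 in the opposite direction in others: the log2 ratio was 0.89 in Hepa1-6 TECs, -1.39 in HAK-1B TECs and -0.71 in KYN-2 TECs. Under 75th percentile scaling it was -0.93 in HAK-1B TECs and -0.19 in KYN-2 TECs, and the latter no longer passed 0.66. Ccl21a had 0.78 in HAK-1B TECs, -3.76 in Hepa1-6 TECs and -6.71 in KYN-2 TECs. Ccl27a had 1.01 in Hepa1-6 TECs and -2.20 in HAK-1B TECs, and its log2 signal was 10.89 in cultured Hepa1-6 cells against 7.30 in LSECs. Ccr6 had 2.09 in HAK-1B TECs and -1.45 in Hepa1-6 TECs. Each tumor was 1 array, so none of these differences between tumors was tested.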

How the results depend on the processing

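Of 207 values of single chemokine ratios under the alternatives, 193 moved by no more than the spread over the 3 TECs, 14 moved by more and 0 reversed a call. The 193 include values that could hardly move. For genes with 1 probe the mean of a gene's probes is the main value, and the deposited table correlated with the main values at r = 0.9998. The limit was also wide for some genes, with an SD of 1.67 on the log2 scale for Ccl8. A reversal was counted only for a ratio called in the main setting, and such ratios lay far from 0, so this count says little. Among ratios not called, that of Ccl4 in HAK-1B TECs changed sign, from -0.10 to 0.34 under 75th percentile scaling. Without the Z-score, the genes called higher numbered 5 in HAK-1B TECs, 7 in Hepa1-6 TECs, 8 in KYN-2 TECs and 1 in Hepa1-6 cells, and those called lower 1, 0, 1 and 8. With normexp background correction 3 genes were called higher in Hepa1-6 TECs, Ccl7, Ccl8 and Ccl9, where the main setting called 1. In KYN-2 TECs 3 genes were called higher, with Ccl2 added, under 75th percentile scaling, normexp, the deposited table, the mean of a gene's probes, both arrays above background or no filter on flags. With both arrays required to be above background the number in Hepa1-6 TECs was 2, Ccl8 and Ccl9, and 1 gene was called lower in Hepa1-6 cells, Ccl5, because those not detected there were left out. The median log2 ratio in Hepa1-6 cells was -6.76 after scaling to the 75th percentile and -4.14 after normexp, against -6.17. With 1 TEC left out in turn, 5 to 6 genes were higher in both remaining TECs, with Ccl2 added without HAK-1B TECs, and 0 to 1 were lower, which was Ccl24 without Hepa1-6 TECs. In the limma fit no probe of these genes had an adjusted p under 0.05 in any setting: the smallest was 0.697 after 75th percentile scaling, 0.124 after normexp, and 0.240 to 0.982 with a TEC left out. Scaling to the 75th percentile moved the median of all genes by 0.34 in Hepa1-6 TECs and by 0.13 in Hepa1-6 cells. Quantile normalization over the 4 endothelial arrays, chosen after seeing the data, moved no count or median past these limits. No paired analysis was possible because no condition had more than 1 array, and a block for slide was not possible either, since LSECs shared no slide with a TEC. Ccl22, not well above background on any array, gives no order.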
